A study of Mus musculus with 6 samples.

Results

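Paired receptors are small families of cell surface proteins in which activating and inhibitory members have closely similar outer parts. The set described here is defined by gene symbol, and its rule uses no threshold on measured values: the Pir and Lilr genes Pira2, Pirb, Lilra6 and Lilrb4a, the Sirp genes Sirpa and Sirpb1a, and the Cd300 genes Cd300a, Cd300lf, Cd300c and Cd300lb. These genes, and the lists of relatives, partners and ligands below, were chosen with earlier results of these data known. Their counts beside the share of all genes are therefore not an unbiased comparison. Of the 10 receptor genes, 8 matched a row of the 22271 genes in the count table. No row carried the GENCODE M21 identifier of Lilrb4a or of Sirpb1a, so these are not analysed here. The count table may hold them under other identifiers, which could not be checked. All 8 passed the filter on low counts.

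The comparison is between 2 kinds of progenitor cells, isolated by cell sorting from marrow of the mouse strain C57BL/6JRj. The labels call one of them CD27 high MODP and the other CD27 low MOP, with 3 libraries each. The sample titles mark all 6 as WT, and neither a treatment nor the age of the mice is given. The title of the series places a progenitor of macrophages and osteoclasts downstream of one that can also give dendritic cells. Cd27, on which the sort rests, had a level of 37.6 ± 1.99 CPM (counts per 1000000, scaled for library composition) in MODP against 3.91 ± 0.571 in MOP (SD, n = 3). Library totals ran from 10701425 to 15892640 counts.

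In the inhibitory members of these families, a long tail inside the cell carries tyrosine motifs. Once phosphorylated by Src family kinases such as Lyn, these recruit phosphatases such as Ptpn6 (SHP-1) and Ptpn11 (SHP-2). The activating members have short tails and signal through adaptors with an activating tyrosine motif, Fcer1g or Tyrobp (DAP12), and the kinase Syk. Myeloid cells carry both kinds. The same adaptors give a costimulatory signal in osteoclast formation, in which the activating PIR-A receptors are among the known partners of Fcer1g. Ligands include class I MHC molecules for the PIR receptors, CD47 for the receptor encoded by Sirpa, and lipids such as phosphatidylserine for some CD300 receptors.

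The Pir and Lilra6 genes lie in a cluster of near-identical copies on chromosome 7, and this bears on every count below. The coding sequences of Pirb, Pira2 and Lilra6 line up without a gap over their first 1790 bases in the GENCODE M21 transcripts. Over that length Pirb and Pira2 differed at 46 positions (97.4% identical), Pirb and Lilra6 at 75 and Pira2 and Lilra6 at 78. The longest run identical in all 3 spans 241 bases, from coding base 1550 to 1790. The stretch in which they differ most is shown, coding bases 437 to 526 counted from the start codon. It sets these 3 copies apart from each other. Reads from it may still match other copies, since most of Pira2 also occurs in the neighbouring gene model Gm15922. Capitals mark the 19 positions of 90 at which the 3 are not all the same.
Pirb: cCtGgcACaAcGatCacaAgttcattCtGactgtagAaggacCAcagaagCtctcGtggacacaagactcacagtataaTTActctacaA
Pira2: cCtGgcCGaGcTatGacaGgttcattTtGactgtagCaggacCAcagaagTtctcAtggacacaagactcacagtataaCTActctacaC
Lilra6: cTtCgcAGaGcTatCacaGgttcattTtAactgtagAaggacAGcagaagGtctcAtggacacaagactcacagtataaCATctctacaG

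By contrast, coding bases 1520 to 1609 hold the start of the identical run, and only the 2 positions in capitals differ there. A read that falls to the right of them cannot be given to one copy.
Pirb: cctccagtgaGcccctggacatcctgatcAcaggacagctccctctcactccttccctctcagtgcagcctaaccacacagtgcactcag
Pira2: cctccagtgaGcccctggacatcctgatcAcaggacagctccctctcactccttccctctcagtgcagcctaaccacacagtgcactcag
Lilra6: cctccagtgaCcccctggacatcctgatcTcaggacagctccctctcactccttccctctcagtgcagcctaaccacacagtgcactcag

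The promoters are as alike as the coding parts. The RefSeq promoter table (GRCm38.p6) matched 8 of the 10 genes, all but Sirpa and Lilrb4a. In the windows below, lined up on the letters GAGGAAGT, which are in capitals, Pirb differed from Pira2 at 4 of 168 positions and each of them from Lilra6 at 7. All 3 genes are on the minus strand, and the windows are chr7:3720415-3720582 for Pirb, chr7:3845112-3845279 for Pira2 and chr7:3915564-3915731 for Lilra6.
Pirb: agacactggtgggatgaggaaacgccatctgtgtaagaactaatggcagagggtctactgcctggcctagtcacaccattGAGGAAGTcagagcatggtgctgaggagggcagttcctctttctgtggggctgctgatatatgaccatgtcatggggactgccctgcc
Pira2: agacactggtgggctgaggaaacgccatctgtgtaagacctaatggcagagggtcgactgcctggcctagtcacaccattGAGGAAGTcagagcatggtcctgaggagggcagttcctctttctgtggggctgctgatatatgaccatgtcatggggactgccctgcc
Lilra6: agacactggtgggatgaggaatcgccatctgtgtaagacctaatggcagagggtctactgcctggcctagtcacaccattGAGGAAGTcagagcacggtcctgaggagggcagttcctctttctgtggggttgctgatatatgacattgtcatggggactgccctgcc

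GAGGAAGT holds the purine-rich core that ETS factors such as PU.1 can bind. On either strand of the 250 bases before the start, it was found in these 3 of the 8 promoters and in 802 of 32851 promoters in the table (2.44%). The 3 are near-identical copies, so they do not count as separate occurrences. The shorter form GAGGAA, which GAGGAAGT overlaps, was in 5 of the 8 and in 23.3% of all promoters. The composite ETS and IRF element was in 0 of the 8 and in 2.30% of all, and TATAAA was in 2 of the 8, those of Cd300lb and Cd300lf, and in 12.4% of all. These matches describe letters in the windows and do not show that a factor was bound.

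**Figure D1:**
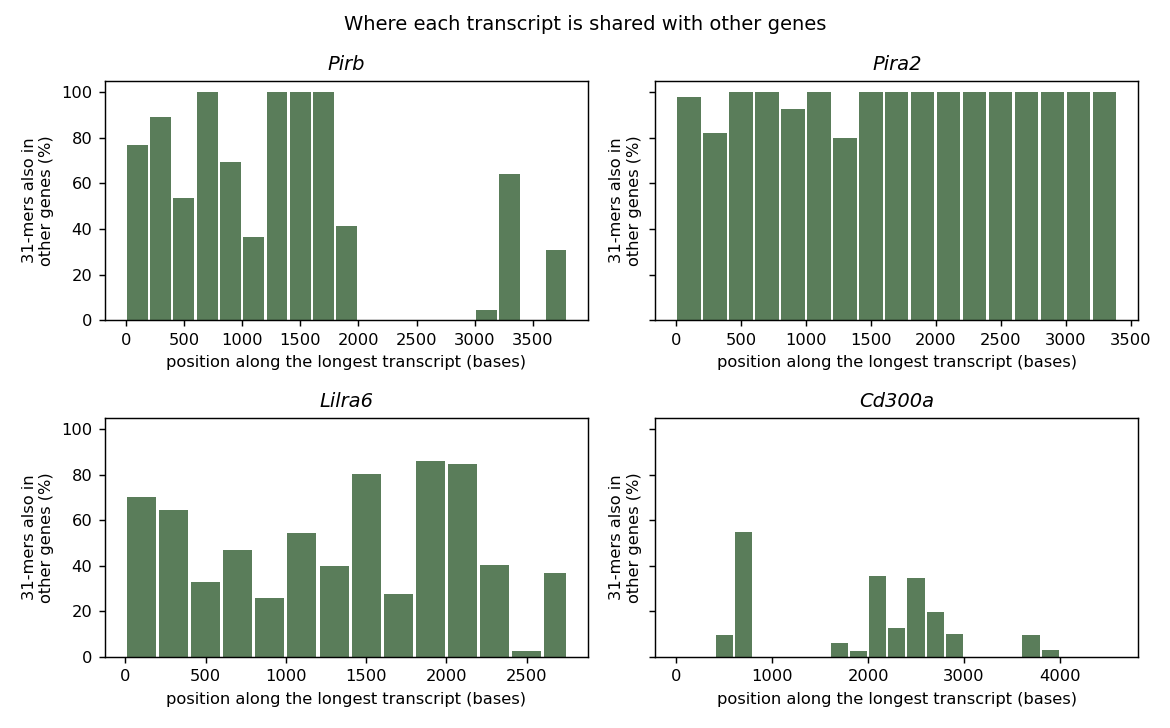
Share of 31-base words that also occur in transcripts of other genes (vertical axis, percent), in successive stretches of 200 bases along the longest GENCODE M21 transcript of Pirb, Pira2, Lilra6 and Cd300a (horizontal axis, bases). Pirb is shared mainly in its first 2000 bases, Pira2 is shared at 80% or more in every stretch, and Cd300a is shared in a few stretches.

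How much of each transcript is unique differed between the genes. Of the 31-base words in the longest transcript of Pira2, 97.2% also occur in other genes, and 88.8% occur in the neighbouring gene model Gm15922. For Lilra6 the share was 49.7% and for Pirb 45.6%. In Pirb, none of the words that begin at transcript bases 2001 to 3000 is shared, and in 3 stretches from base 1201 to 1800 all are. The other 5 genes with counts are largely unique, at 8.46% for Cd300a, 5.45% for Cd300lf, 4.18% for Cd300c, 0.0506% for Sirpa and 0% for Cd300lb. The counts of Pira2, Pirb and Lilra6 can therefore depend on how reads with several matches were treated, a setting that these sources do not state.

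Receptor genes of this set were higher in MOP or did not pass the test. At a threshold of 0.05 on the edgeR quasi-likelihood p, adjusted over all genes by Benjamini-Hochberg, MOP had the higher level for 5 of 8 (Lilra6, Pira2, Cd300lb, Sirpa and Cd300a). None was lower, and Pirb, Cd300lf and Cd300c did not pass. Over all 12850 genes tested, 16.3% were higher and 14.9% lower, 31.2% in all. Upper-quartile scaling moved that split to 13.2% higher and 19.1% lower, with the same 5 of 8 receptor genes counted higher. The median log2 fold change was 0.66 over the 8 and -0.01 over all genes. Since the 8 were chosen with earlier results known, these values describe the set and do not test it. Counts under the alternatives are set beside the share of all genes called higher in the same fit. DESeq2 called 5 receptor genes (14.2% of all genes), a filter of 1 CPM in 3 libraries 5 (16.5%) and no filter 4 (9.2%). Models that grouped libraries by the number in the table's columns (21.2%) or in the sample titles (19.6%) each called 5. Only the column numbers make pairs, since the title numbers put replicates 1 and 3 together. Without MODP replicate 1, 2 or 3 the count was 3, 6 and 5 (11.2%, 19.3% and 11.8%), and without MOP replicate 1, 2 or 3 it was 3, 4 and 5 (9.75%, 12.2% and 12.2%). With both libraries numbered 2 left out, 7 of 8 were called (18.4%).

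For 6 of the 8 every MOP library was above every MODP library, as was so for 23.8% of all genes. In sorted bulk samples, a change in RNA per cell and a change in the share of cells that carry the RNA cannot be told apart.

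**Figure D2:**
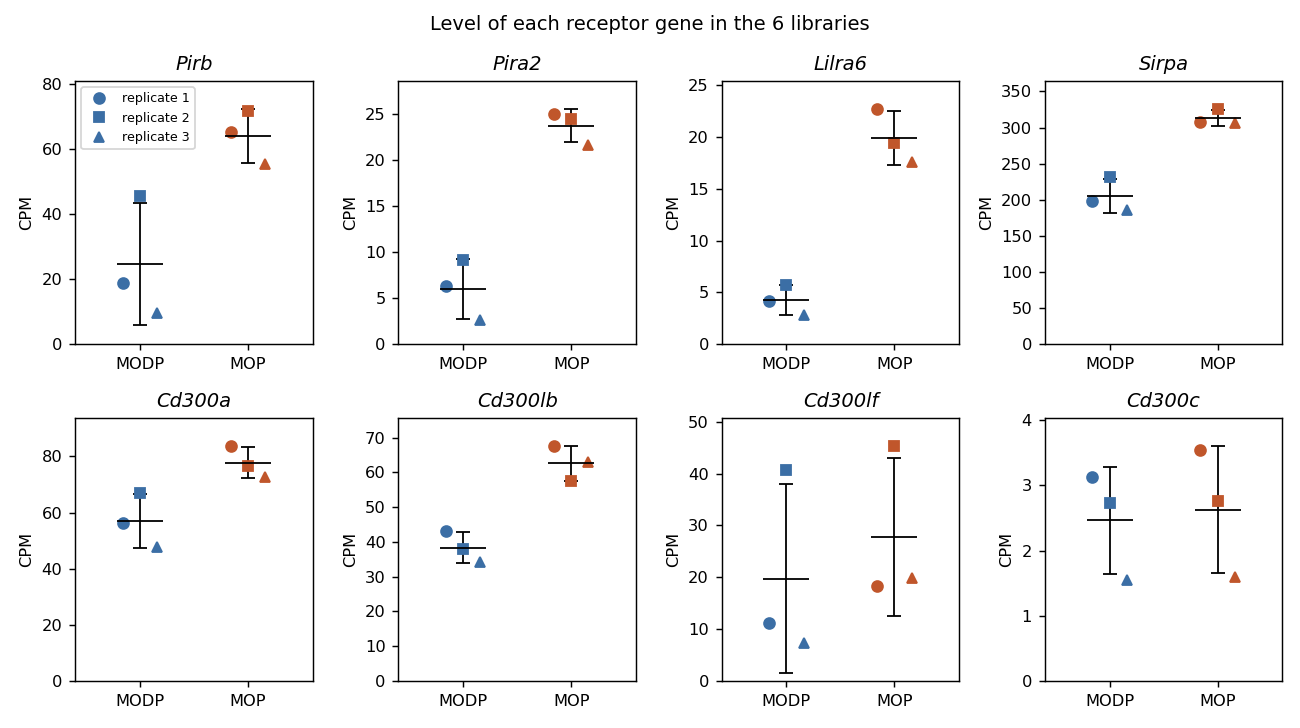
CPM of the 8 receptor genes (vertical axes, each from 0) in the 3 MODP and 3 MOP libraries; symbols give the replicate number, the horizontal bar the mean and the whiskers 1 SD. Every MOP library lies above every MODP library for Pirb, Pira2, Lilra6, Sirpa, Cd300a and Cd300lb, and replicate 2 is the highest of its group for Cd300lf in both groups.

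Lilra6 and Pira2 had the largest differences among the receptor genes with counts. Lilra6 (ENSMUSG00000030427; also known as Pira3), an activating receptor of the PIR-A kind, stood at 4.19, 5.74 and 2.81 CPM in MODP replicates 1, 2 and 3 and at 22.7, 19.5 and 17.6 CPM in MOP. The lowest MOP library was thus above the highest MODP library. Its log2 fold change was 2.25 ± 0.24 (SE), or 4.74-fold (edgeR adjusted p = 0.00057), which placed it 95th of 12850 genes by size of increase. In each of the 13 alternative analyses it was called higher (adjusted p at most 0.0058).

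Pira2 (ENSMUSG00000089942), an activating receptor that pairs with the adaptor Fcer1g, stood at 6.33, 9.12 and 2.60 CPM in MODP, against 25.0, 24.5 and 21.7 in MOP. Here too the groups did not overlap. The difference was 4.02-fold, a log2 fold change of 2.01 ± 0.40 (SE; edgeR adjusted p = 0.015). The call was lost without MODP replicate 1 (edgeR adjusted p = 0.065), without MOP replicate 1 (0.059) and without a filter on low counts (0.056), with log2 fold changes of 1.96 to 2.06. In counts, MODP held 77, 97 and 37 reads of Pira2 and MOP held 340, 383 and 286.

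Pirb (ENSMUSG00000058818) is the inhibitory partner of these receptors and recruits Ptpn6. Pirb stood at 18.8, 45.5 and 9.56 CPM in MODP, against 65.2, 71.5 and 55.3 in MOP. The groups did not overlap, but MODP replicate 2 lay far above MODP replicates 1 and 3. The log2 fold change of 1.399 ± 0.60 (SE) fell short of the threshold (edgeR adjusted p = 0.16). Without MODP replicate 2 it was 2.19 (edgeR adjusted p = 0.010) and without both libraries numbered 2 it was 2.10 (edgeR adjusted p = 0.024). In the other 11 alternatives Pirb was not called, with adjusted p-values of 0.084 to 0.34.

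Because the copies share sequence, their sum is less exposed to how reads were divided among them. It can still miss reads that were dropped for matching several copies, a setting that is not stated. Summed over 9 rows of the cluster that share sequence (Pirb, Pira2, Lilra6, Gm14548, Gm15448, Gm15922, Gm10693, Gm15925 and Gm15931), MODP libraries held 31.7, 66.7 and 17.1 CPM and MOP libraries 129, 128 and 106 CPM. The mean was 3.15 times as high in MOP, at 121 ± 12.8 against 38.5 ± 25.5 CPM (SD, n = 3), and the groups did not overlap. Without MODP replicate 2, a check added after seeing the data, the MODP mean was 24.4 CPM and the ratio 4.98. Leaving out any other single library gave ratios from 2.47 (without MODP replicate 3) to 3.34 (without MOP replicate 3). This sum was given no test.

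The balance within the cluster was also compared. Counts of Pira2 were 33.6%, 20.0% and 27.2% of those of Pirb in MODP and 38.4%, 34.3% and 39.2% in MOP. All MOP libraries were above all MODP libraries, but a two-sided exact permutation test of 3 against 3 cannot go below the 0.10 that it gave. Among the 4 such ratios computed, its adjusted exact p was 0.27. Counts of Lilra6 were 22.3%, 12.6% and 29.4% of Pirb in MODP and 34.8%, 27.2% and 31.8% in MOP, and these overlapped (exact permutation p = 0.20).

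Gene models of the same cluster moved in the same direction or did not pass. Gm14548, which shares 62.0% of its 31-base words with Pira2, stood at 1.32, 3.48 and 1.55 CPM in MODP, against 11.6, 8.39 and 8.72 in MOP. It was 4.60-fold higher (edgeR adjusted p = 0.0030). Gm15448 ranged from 0.16 to 1.41 CPM in the MODP libraries and from 1.92 to 2.43 in the MOP libraries (edgeR adjusted p = 0.067, not past the threshold), and without MODP replicate 2 its log2 fold change was 3.73 (edgeR adjusted p = 0.00054). Gm15922, the near copy of Pira2, had 6 to 12 reads a library in MODP and 12 to 27 in MOP (edgeR adjusted p = 0.099; 0.044 with same-numbered libraries paired). Lilra5, an activating relative outside the block of near copies, had 1 to 7 reads in every library and was not tested.

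Sirpa (ENSMUSG00000037902) encodes the inhibitory receptor for CD47, which restrains uptake of cells that carry CD47. It was the most abundant of the receptor genes with counts, at 199, 231 and 186 CPM in MODP, against 308, 325 and 306 in MOP. The groups were well apart. Sirpa was 1.53-fold higher in MOP (log2 0.61 ± 0.08 SE, edgeR adjusted p = 0.0014) and was called in all 13 alternatives. Per kilobase of annotated exons it stood at 41.8 ± 4.79 CPM in MODP, against 63.8 ± 2.15 in MOP (SD, n = 3). That was above every other receptor gene with counts, in both groups. Against Pira2, Pirb and Lilra6, this order can depend on how shared reads were treated.

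The relatives of Sirpa on the Sirpb side were low. Sirpb1c, an activating relative that shares 72.2% of its 31-base words with other genes, had 3 to 23 reads in MODP and 18 to 38 in MOP (not past the test, edgeR adjusted p = 0.51). Gm9733, a gene model listed here beside the Sirpb genes, was at 2.06, 6.21 and 2.32 CPM in MODP, against 5.01, 8.32 and 6.60 in MOP. Its groups overlapped through MODP replicate 2, and its edgeR adjusted p was 0.15. With libraries of the same number paired in the model it was called (log2 1.01, edgeR adjusted p = 0.012). Gm5150 had 3 to 31 reads in MODP and 8 to 40 in MOP (edgeR adjusted p = 0.77).

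Among the Cd300 genes, an activating and an inhibitory receptor were both higher in MOP. Cd300lb (ENSMUSG00000063193), which signals through Tyrobp, stood at 43.0, 38.0 and 34.1 CPM in MODP, against 67.45, 57.5 and 62.9 in MOP. It was 1.63-fold higher (log2 0.71 ± 0.10 SE, edgeR adjusted p = 0.0017), in all 13 alternatives too. Replicate 2 was not the highest library in either group.

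Cd300a (ENSMUSG00000034652), an inhibitory receptor that binds phosphatidylserine, stood at 56.2, 67.0 and 47.7 CPM in MODP, against 83.7, 76.7 and 72.7 in MOP. The groups came close without overlapping. The difference was 1.37-fold (log2 0.45 ± 0.12 SE, edgeR adjusted p = 0.025). It lost its call without MODP replicate 1 (edgeR adjusted p = 0.083), without MOP replicate 1 (0.089) and without MOP replicate 2 (0.062).

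Cd300lf and Cd300c did not pass the test. Cd300lf (ENSMUSG00000047798), an inhibitory receptor of myeloid cells, stood at 11.3, 40.7 and 7.24 CPM in MODP, against 18.3, 45.3 and 19.8 in MOP. Replicate 2 was the highest library of each group, and the groups overlapped. The difference, 0.52 ± 0.82 on the log2 scale (SE), was not called (edgeR adjusted p = 0.69). Between libraries with the same number, MOP was 1.62, 1.11 and 2.74 times MODP, and without both libraries numbered 2 the log2 fold change was 1.05 (edgeR adjusted p = 0.0072). Without MOP replicate 2 alone it was -0.03 (edgeR adjusted p = 0.99).

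Cd300c (ENSMUSG00000058728) was low in all 6 libraries, at 3.12, 2.73 and 1.55 CPM in MODP, against 3.53, 2.75 and 1.59 in MOP. Its means lay within the spread of either group (log2 0.10 ± 0.37 SE, edgeR adjusted p = 0.86). It had 21 to 48 reads a library.

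The largest difference in the wider families was that of Cd300lg (ENSMUSG00000017309), a CD300 relative known from endothelial cells. Cd300lg stood at 5.92, 6.87 and 4.50 CPM in MODP, against 43.1, 30.4 and 35.2 in MOP. That is 6.33-fold higher, a log2 fold change of 2.66 ± 0.19 (SE, edgeR adjusted p = 0.00022), called in all 13 alternatives. Only 0.594% of its 31-base words are shared with other genes.

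Of 33 names listed as relatives of the set, 15 had a row and 12 were tested. Cd300lg and Gm14548 were called higher, none was lower and 10 missed the threshold, and their median log2 fold change was 0.60. Over all genes 16.3% were higher, a share near that of the relatives. The count of higher relatives was 4 with the replicate number as a block (21.2% of all genes) and 7 without MODP replicate 2 (19.3%). Of the other Cd300 relatives, Cd300c2 and Cd300ld were not called (edgeR adjusted p = 0.55 and 0.91). They stood at 6.87 and 11.3 CPM in MODP replicate 2, against 1.34 to 2.71 CPM for either gene in MODP replicates 1 and 3. Cd300c2 was called without MODP replicate 2 (log2 1.57, edgeR adjusted p = 0.0072). Pilra, an inhibitory receptor, and its activating counterparts Pilrb1 and Pilrb2 had log2 fold changes of 0.47, 0.36 and -0.15 (edgeR adjusted p = 0.68, 0.57 and 0.90). Without MODP replicate 2 these were 1.42, 0.96 and 0.80, and Pilrb1 alone of the 3 was called (edgeR adjusted p = 0.093, 0.020 and 0.20). Without both libraries numbered 2, Pilra and Pilrb1 were called (edgeR adjusted p = 0.019 and 0.035). Pilra, Pilrb1 and Pilrb2 share 33.0%, 50.1% and 49.3% of their 31-base words with other genes, so their counts can depend on how shared reads were treated. Cd300e and Cd300ld3 had too few reads to be tested.

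**Figure D3:**
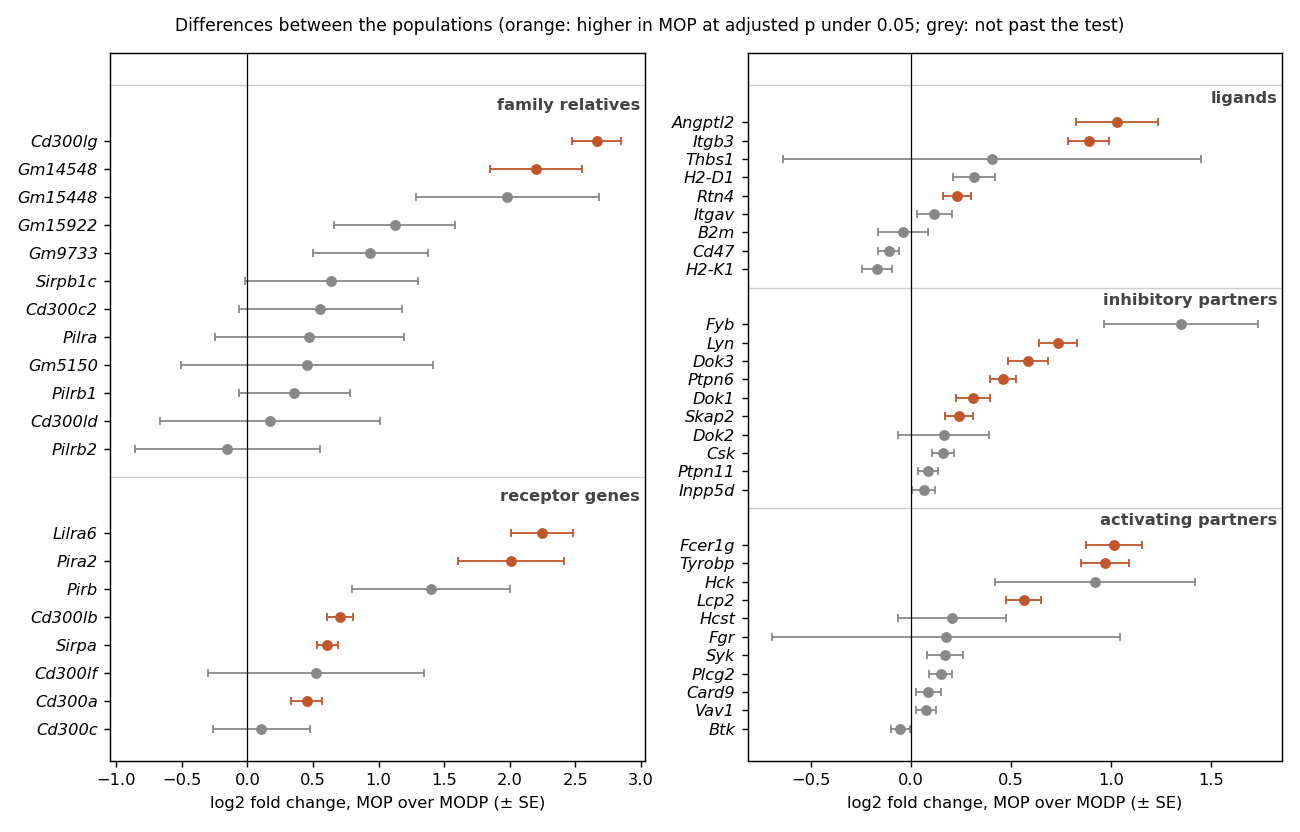
Log2 fold change of MOP over MODP with its SE (horizontal axes) for each tested gene, grouped by list (vertical axes). Points in orange are higher in MOP at an edgeR adjusted p under 0.05, grey points did not pass, and no gene in these lists was called lower.

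Libraries with the number 2 stood apart for many of these genes. Replicate 2 was the highest library in both groups for 3 of the 8 receptor genes (Pirb, Sirpa and Cd300lf) and for 9 of the 12 tested relatives, against 19.1% of all genes tested. The summed CPM of 9 neutrophil markers, among them S100a8, S100a9, Ltf and Camp, was 16733 in MODP replicate 2 against 2170 and 3584 in the other MODP libraries. In MOP it was 11682 in replicate 2 against 2820 and 4999.5. None of the 9 was at 0 in all libraries, and none differed between the groups by the test. The part of these cells in the values of replicate 2 was not tested. For Lilra6, Pira2, Sirpa, Cd300a and Cd300lb the difference was called with both replicate 2 libraries left out (edgeR adjusted p 0.0003 to 0.0092).

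**Figure D4:**
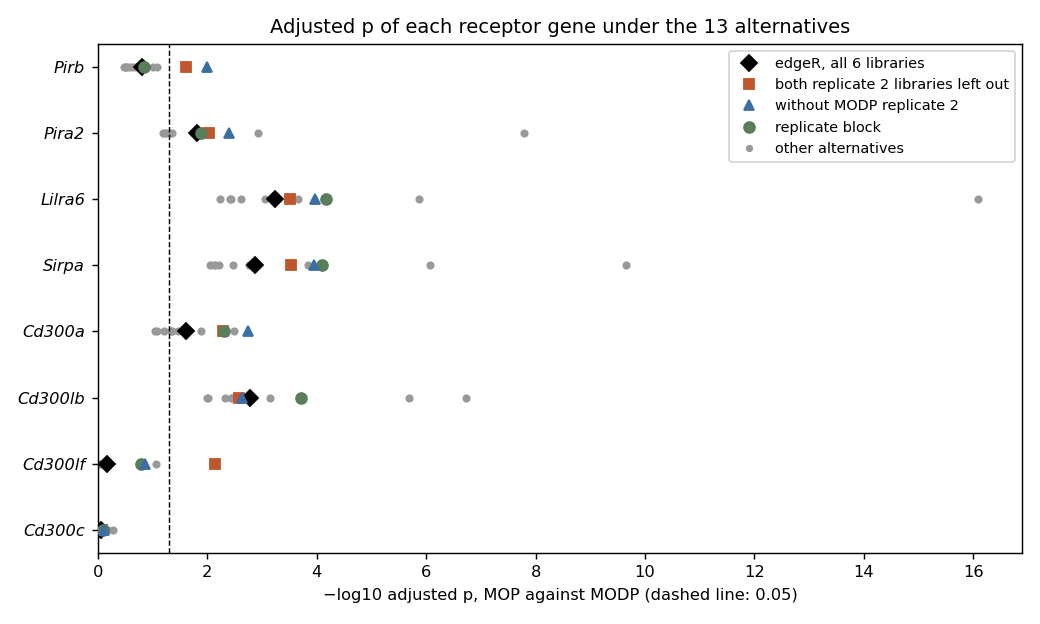
Adjusted p of the 8 receptor genes on a −log10 scale (horizontal axis) with all 6 libraries in edgeR (black) and under 13 alternatives, with the dashed line at 0.05. Pirb passes the line without MODP replicate 2 and without both libraries numbered 2, and Cd300lf passes it in the latter.

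Some markers of other cells also moved with the groups. Over all genes tested, 16.3% were higher in MOP and 14.9% lower. Of 10 basophil and mast cell markers, 9 were higher in MOP and 0 were lower, and their summed CPM was 572 to 1184 in the MODP libraries and 3496 to 5500 in the MOP libraries, with none at 0 in all libraries. With same-numbered libraries paired, 4 of the 9 calls held, and Mcpt8, Prss34, Fcer1a, Ms4a2 and Gata2 missed the threshold (edgeR adjusted p 0.052 to 0.093). The sum of these 10 markers moved in the same direction as Lilra6, Pira2, Sirpa, Cd300a, Cd300lb and Cd300lg. Of 8 tested markers of mature macrophages, Cd68 and Adgre1 were higher, and the sum over 9 was 124 to 191 CPM in MODP against 186 to 272 in MOP. Of 8 dendritic cell markers, Zbtb46 and Cd209a were higher in MOP (3.21-fold and 4.19-fold) and Siglech and Bst2 were lower, while the sum was 86.4 to 117 CPM in MODP and 102 to 115 in MOP. None of the 8 was at 0 in all libraries. The summed T and NK cell markers went the other way, from 220 to 283 CPM in MODP down to 66.5 to 106 in MOP. Nkg7 alone made up most of that sum, at 204, 237 and 240 CPM in MODP and 65.0, 99.3 and 92.3 in MOP. Of the 8 T and NK cell markers, 5 were lower in MOP and 0 were higher. The part of these other cells in the differences of the receptor genes was not tested.

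The adaptors Fcer1g and Tyrobp were higher in MOP, whereas the kinase downstream did not pass the test. Hcst, another listed adaptor, named after its value was seen, did not pass either (1.15-fold, edgeR adjusted p = 0.62). Fcer1g, the adaptor of PIR-A, stood at 139, 172 and 116 CPM in MODP, against 305, 272 and 284 in MOP, 2.02-fold higher (edgeR adjusted p = 0.0031). Tyrobp, the adaptor of Cd300lb and the Sirpb receptors, stood at 217, 239 and 170 CPM in MODP, against 432, 384 and 410 in MOP, 1.96-fold higher (edgeR adjusted p = 0.0017). Lcp2, an adaptor that links Syk to phospholipase C, was 1.48-fold higher (edgeR adjusted p = 0.0025). Syk itself had means of 287 ± 38.0 and 322 ± 10.6 CPM (SD, n = 3; edgeR adjusted p = 0.19). With same-numbered libraries paired it was called, at a log2 fold change of 0.18 (edgeR adjusted p = 0.040).

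Of the 11 genes on this list, which also held kinases and exchange factors, 3 rose in MOP, none fell and 8 did not pass, with a median log2 fold change of 0.17. The share of higher genes over all genes was 16.3%. The count was 5 with the replicate number as a block (21.2% of all genes) and 7 without MODP replicate 2 (19.3%).

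On the inhibitory side 5 of 10 genes rose in MOP, none fell and 5 did not pass (median log2 0.28), beside 16.3% of all genes higher and 14.9% lower. Lyn, the kinase that phosphorylates inhibitory tyrosine motifs, stood at 108, 116 and 91.4 CPM in MODP, against 188, 175 and 161 in MOP, 1.66-fold higher (edgeR adjusted p = 0.0013). It shares 26.6% of its 31-base words with other genes, so its counts too can depend on how shared reads were treated. Ptpn6, the phosphatase recruited by Pirb and Sirpa, stood at 255, 269 and 231 CPM in MODP, against 349, 346 and 342 in MOP, 1.37-fold higher (edgeR adjusted p = 0.0016). The groups did not overlap for either gene.

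The other phosphatases on the list did not pass the test. Ptpn11, the related tyrosine phosphatase, was at 206 ± 6.51 and 218 ± 5.03 CPM (SD, n = 3; edgeR adjusted p = 0.25). Inpp5d, the lipid phosphatase SHIP1, was at 295 ± 7.59 and 308 ± 18.1 CPM (SD, n = 3; edgeR adjusted p = 0.46). The adaptors Dok3 and Dok1 were 1.501-fold and 1.24-fold higher (edgeR adjusted p = 0.0042 and 0.025). The call for Dok1 was lost in 5 of the 13 alternatives. Skap2, an adaptor named after its value was seen, was the other gene called (1.18-fold, edgeR adjusted p = 0.031), and its call was lost in 6 of the 13, among them 5 of the 6 fits without a library. Leaving out MODP replicate 1, MODP replicate 3, MOP replicate 1 or MOP replicate 2 gave a count of 3 higher genes each time (9.75% to 12.2% of all genes), and leaving out MODP replicate 2 gave 8 (19.3%). Lyn and Ptpn6 were called in all 13 alternatives.

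Ligand genes gave a mixed picture. Cd47, the ligand of the Sirpa receptor, stood at 363, 384 and 360 CPM in MODP, against 339, 349 and 336 in MOP, lower in every MOP library without passing the test (log2 -0.11 ± 0.05 SE, edgeR adjusted p = 0.13). Under upper-quartile scaling it was called lower (log2 -0.17, edgeR adjusted p = 0.037). B2m, the light chain of class I MHC, was not called (log2 -0.04 ± 0.12 SE, edgeR adjusted p = 0.85). The class I heavy chains on the list, named after their values were seen, share 27.7% (H2-D1) and 22.5% (H2-K1) of their 31-base words with other genes. H2-D1 was at 0.32 ± 0.11 (log2, SE; edgeR adjusted p = 0.056) and H2-K1 at -0.17 ± 0.07 (edgeR adjusted p = 0.12). With same-numbered libraries paired, H2-D1 was called higher (edgeR adjusted p = 0.0016) and H2-K1 lower (edgeR adjusted p = 0.011). Itgb3, a chain of the integrin that binds the Lilrb4a receptor, rose 1.85-fold in MOP (edgeR adjusted p = 0.00069), Angptl2, a secreted ligand of Pirb, rose 2.04-fold (edgeR adjusted p = 0.0067) and Rtn4, the ligand Nogo, rose 1.17-fold (edgeR adjusted p = 0.038). The call for Rtn4 was lost in 6 of the 13 alternatives. Of the 9 ligand genes 3 rose, none fell and 6 missed the threshold, beside 16.3% of all genes higher and 14.9% lower.

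By level per kilobase of annotated exons, Sirpa came first in MOP. Cd300lb followed at 21.5 ± 1.71, Cd300a at 16.4 ± 1.17 and Pirb at 14.3 ± 1.83 CPM per kilobase (SD, n = 3). This scale allows for length but not for shared sequence. The places of Pirb, Pira2 and Lilra6 among the other genes can therefore depend on how shared reads were treated. The spreads of Cd300a and Pirb overlapped. Pira2 and Lilra6 stood at 6.86 ± 0.520 and 6.53 ± 0.843 CPM per kilobase, within each other's spread, and Cd300lf at 5.40 ± 2.95 overlapped with both. In MODP the means ran from Sirpa at 41.8 to Cd300lb at 13.2 ± 1.53, Cd300a at 12.0 ± 2.04 and Pirb at 5.51 ± 4.18 CPM per kilobase (SD, n = 3). There the spreads of Cd300lb and Cd300a overlapped, and that of Pirb overlapped with those of all genes below it. Below Pirb came Cd300lf at 3.83, Cd300c at 2.32, Pira2 at 1.74 and Lilra6 at 1.39. The spreads of these last 4 overlapped in MODP, whereas in MOP those of Pira2 and Lilra6 lay above that of Cd300c, at 2.47 ± 0.917.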

How the data were processed

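Total RNA of progenitors sorted from mouse bone marrow was made into TruSeq libraries, per the labels' protocols. The deposited table holds raw read counts per Ensembl gene. TopHat 1.4 and HTSeq are named in the submitters' processing notes. Not given in the sources used here are the build, annotation, strand setting and handling of multiply matching reads. Samples were grouped by the cell type label. No label ties a library to an animal, so each p-value reflects library-to-library spread, which may be technical. Symbols came from GENCODE M21 by identifier (20840 of 22271 matched).

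CPM values and tests used edgeR 4.0.16 with TMM scaling, filterByExpr, robust quasi-likelihood and group as the sole factor. SEs are the log2 fold change divided by the square root of F. DESeq2 1.42.0, upper-quartile scaling, other count filters, replicate blocks and leaving out libraries were the 13 alternatives. Shared sequence was measured as 31-base words of the longest transcript found in other genes. Of the 10 receptor genes all were named whatever their test said, as were all tested relatives and, in each partner and ligand list, up to 4 called genes by smallest adjusted p plus 9 fixed genes. Members and lists were chosen with earlier results of these data known. The fit was also run on simulated counts with known changes. The simulated libraries held no replicate effect, so that run does not test the fit under the pairing seen in these data.

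In the sample titles the numbers run WT1, WT2, WT1, while the table's columns have 1, 2 and 3, used here. Deviations from the group means over 9351 genes correlated at 0.59, 0.61 and 0.51 between libraries of the same column number and at -0.45 to 0.05 otherwise. These numbers were therefore used as pairs in the replicate block. The main fit, which gave the p-values printed without a named alternative, left this pairing out.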

Additional observations from a re-analysis of the deposited data

How the results depend on the processing

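Of the 8 receptor genes, Lilra6, Sirpa and Cd300lb were called higher in MOP under all 13 alternatives, Pira2 and Cd300a under 10 each, Pirb under 2, Cd300lf under 1 and Cd300c under 0. The count of higher receptor genes was 3 to 6 when single libraries were left out, against 5. All of the counts below are of genes past an adjusted p of 0.05. Without single libraries, 1281 to 2524 genes were higher and 1036 to 2275 lower, 2 to 7 relatives were higher, and the higher partners were 3 to 7 on the activating and 3 to 8 on the inhibitory list. Without both libraries numbered 2, 7 relatives and 7 activating partners were higher. With the replicate number as a block, 4 relatives and 5 activating partners were higher and 1 ligand gene was lower; with the title number as a block, 4 relatives were higher and 1 ligand gene was lower. Upper-quartile scaling gave 2 lower ligand genes. The replicate block changed no call among the receptor genes; of the other named genes it added Gm9733, Gm15922, Syk, H2-D1 and H2-K1, and it removed 5 calls among the basophil and mast cell markers.

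Some log2 fold changes that edgeR did not call with all 6 libraries changed sign when single libraries were left out. Their ranges were -0.14 to 0.074 for B2m, -0.17 to 0.36 for Cd300c, -0.32 to 1.45 for Cd300ld, -0.031 to 1.6025 for Cd300lf, -0.13 to 2.17 for Gm5150 and -0.68 to 0.80 for Pilrb2. Pilrb2 was at 0.28 without both libraries numbered 2. The cause of these changes was not tested. Low counts, as for Gm15922, Gm5150 and Sirpb1c, limit what can be detected.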
